A study of Drosophila melanogaster with 6 samples.

Results

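The genes described here encode the subunits of the vacuolar H+-ATPase (V-ATPase) of Drosophila melanogaster. They are all protein-coding genes of the RefSeq annotation on the dm6 assembly whose symbol begins with Vha, and number 33 of 13946 protein-coding genes on the chromosome arms. The rule uses the symbol alone and no measured value. Binding of CrebA, a bZIP transcription factor of secretory tissues, was mapped at these genes by ChIP-seq in embryos of stages 11 to 16. In fkh-GAL4::UAS-CrebA-GFP and in sage-GAL4::UAS-CrebA-GFP embryos, GFP-tagged CrebA was expressed from a transgene and precipitated with an antibody to GFP. In wild-type Oregon R embryos, untagged CrebA was precipitated with an antiserum to CrebA. Each of these 3 libraries has its own input library, not analysed here.

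Per the series text, each Gal4 driver acts in more than one tissue, and the salivary gland is the only tissue common to both. The labels do not say whether the driver embryos lack endogenous CrebA. The Oregon R library differs from the driver libraries in the source of CrebA, in its tissues and in the antibody, and these cannot be told apart. Each condition has 1 library, so no difference between lists has a replicate check, and no p-value is given. Chromatin came from whole embryos, so that strong binding in few cells and weak binding in many cells cannot be told apart.

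The V-ATPase is a rotary proton pump. Its peripheral V1 sector hydrolyses ATP, and its membrane sector V0 carries protons across the membrane. The pump acidifies the Golgi, secretory granules, endosomes and lysosomes, and in insect epithelia such as the Malpighian tubule it also energises transport at the plasma membrane. In the fly, several subunits are encoded by a broadly expressed gene and by paralogues used mainly in single tissues, above all the testis. Here 13 genes encode V1 subunits, 18 encode V0 subunits and 2 encode the accessory protein Ac45 or its relative. From general knowledge of their expression, 15 genes were classed as broadly expressed and 11 as tissue-restricted, and 7 were not classed. These classes do not come from the deposited files.

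In the authors' files the fkh-Gal4 list held 6464 peaks, the sage-Gal4 list 7916 and the Oregon R list 14039, with median widths of 396, 402 and 478 bp. The fold enrichment of a peak is the authors' own value, with medians of 1.74, 1.85 and 1.88 in these lists. It serves here as a description and, as a percentile, to rank each peak in its own list, where values near 100 belong to the strongest peaks. A gene is called bound where a summit lies within 1000 bp of its first or last coordinate. The annotation used gives no strand, so ends are named lower and higher by coordinate, and starts and ends of transcription were not told apart.

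CrebA peaks lay at the ends of most broadly expressed V-ATPase genes in every list, and at a smaller share of the tissue-restricted paralogues. In the fkh-Gal4 list 16 of the 33 genes were bound (48.5%), compared with 28.4% of all protein-coding genes. In the sage-Gal4 list 19 were bound (57.6%), beside a background of 38.9%. The Oregon R list bound 24 (72.7%), beside 62.4%. In both driver lists 15 genes were bound (45.5%, with 26.2% of all genes), and in all 3 lists 14 (42.4%, with 24.9%).

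Every gene falls into one of a few patterns over the lists, shown in the plot of the strongest peak at each gene. The 14 genes bound in all 3 lists are Vha68-1, Vha68-2, Vha55, Vha44, Vha36-1, Vha26, Vha14-1 and Vha13 of V1, Vha100-1, Vha100-2, Vha16-1, VhaAC39-1 and VhaAC39-2 of V0, and VhaAC45. Bound in the sage-Gal4 and Oregon R lists but not with fkh-Gal4 were 3 genes, VhaSFD, VhaPPA1-1 and VhaM9.7-b, a pattern that 11.9% of all genes had. VhaM9.7-c was bound with fkh-Gal4 and in Oregon R but not with sage-Gal4 (1.74% of all genes). A driver list but not the Oregon R list bound 2 genes, Vha16-4 with both drivers and Vha36-2 with sage-Gal4 (2.59% of all genes). Oregon R was the sole list to bind 6 genes, Vha14-2, Vha16-5, Vha100-5, VhaPPA1-2, VhaM9.7-a and VhaAC45RP (23.8% of all genes). No list bound 7 genes, Vha68-3, Vha36-3, Vha100-3, Vha100-4, Vha16-2, Vha16-3 and VhaM9.7-d (35% of all genes).

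**Figure D1:**
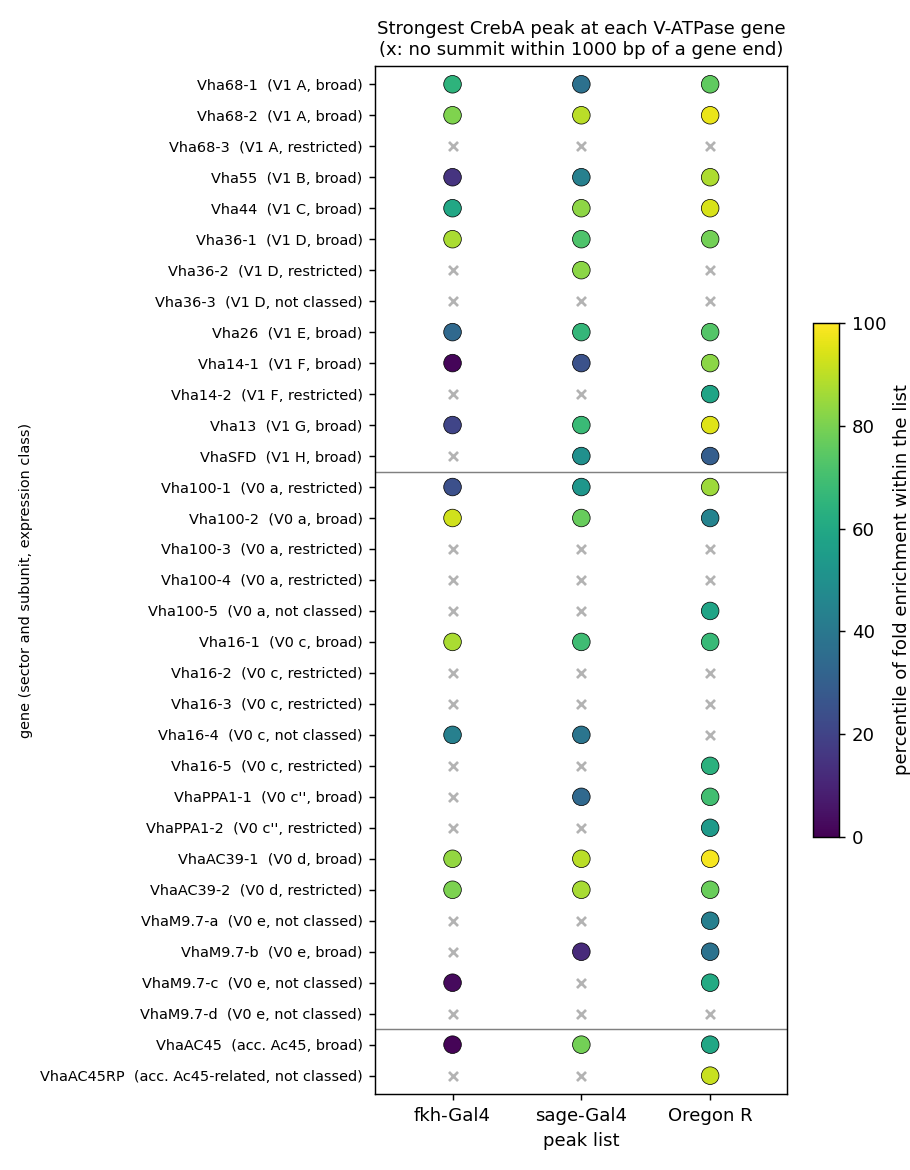
Strongest peak at each of the 33 V-ATPase genes (rows, with sector, subunit and expression class) in the fkh-Gal4, sage-Gal4 and Oregon R lists (columns). Colour gives the percentile of the authors' fold enrichment within that list, and a cross marks a gene with no summit within 1000 bp of an end; 14 rows are filled in all 3 columns and 7 hold only crosses.

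The first comparison set the V1 sector against the V0 sector. Of 13 V1 genes, 8 were bound with fkh-Gal4, 10 with sage-Gal4 and 10 in Oregon R. Of 18 V0 genes, 7, 8 and 12 were bound in the same lists. The V1 shares were 61.5%, 76.9% and 76.9%, and the V0 shares 38.9%, 44.4% and 66.7%, beside 28.4%, 38.9% and 62.4% of all genes. The V0 shares with sage-Gal4 and in Oregon R were thus near those of all genes. In both driver lists the counts were 8 of 13 V1 genes (61.5%) and 6 of 18 V0 genes (33.3%), beside 26.2% of all genes. When −log10 q had to reach 10, 0 V1 genes and 3 V0 genes were bound with both drivers, beside 5.25% of all genes. At that limit Oregon R bound 8 V1 genes (61.5%) and 7 V0 genes (38.9%), beside 42.8% of all genes. At that limit the order of V1 above V0 thus turned round on few genes with both drivers, and held in Oregon R. If a summit could bind no gene but the nearest one, Oregon R bound 53.8% of V1 and 50% of V0 genes. The share of all genes was 45.1%, so the sectors were then near each other. Both drivers bound 46.2% of V1 and 27.8% of V0 genes by that rule, beside 16.2%. The sectors also overlap with the expression classes, as a larger share of V1 than of V0 genes is classed as broadly expressed. All 15 broadly expressed genes were bound with sage-Gal4 and in Oregon R. The unbound V1 and V0 genes of those lists were thus all of other classes. The part of expression class in the difference between sectors was not tested. The sectors differ in their number of paralogues, so the complex was also counted by subunit. With sage-Gal4 and in Oregon R, each of the 8 V1 subunits and each of the 5 V0 subunits had at least 1 bound gene. With fkh-Gal4, 11 of these 13 subunits had one, and the H subunit of V1 and the c'' subunit of V0 had none. Counted this way, 7 of 8 V1 subunits and 3 of 5 V0 subunits had a gene bound in both driver lists. The V0 subunits without one were c'' and e. A subunit with many genes, such as a and c with 5 each and e with 4, has more chances of a bound gene. No share over all genes matches these counts by subunit.

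The A and B subunits form the catalytic head of V1. Vha68-2 (2L from 12974322 to 12978607), the main A subunit gene, had folds of 2.06, 2.45 and 2.97 in the fkh-Gal4, sage-Gal4 and Oregon R lists, at percentiles of 80.5, 89.7 and 96.5. Its peaks lay at the lower end of the gene, with no other gene end within 1000 bp of the summits. Vha68-1 (2L from 13000770 to 13004107), a second A gene, had folds of 1.85, 1.75 and 2.25. Its driver summits lay outside the lower end, 16 and 34 bp from an end of Yip1d1, a gene of the Yip1 family of ER and Golgi proteins. The strongest Oregon R peak of Vha68-1 lay at the opposite end, between Vha68-1 and mTor, and a weaker one with a fold of 2.16 lay with the driver peaks. Vha55 (3R from 12623762 to 12627829), the single B subunit gene, had folds of 1.55, 1.80 and 2.54, at percentiles of 14.9, 43.3 and 87.8. By fold, the driver peaks of Vha55 were thus in the weaker part of their own lists, while its Oregon R peak was among the stronger of that list. By −log10 q the percentiles were 45.3, 61.5 and 93.2, which puts the sage-Gal4 peak above the middle of its list. The Oregon R summit lay 59 bp from Snx3 and 143 bp from Vha55.

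The D and F subunits form the central rotor of V1. Vha36-1 (2R from 15541435 to 15542498), a D gene of 1064 bp, had folds of 2.21, 2.09 and 2.32. The fkh-Gal4 and Oregon R peaks were 1768 and 2005 bp wide and spanned the whole gene, and sage-Gal4 had a peak at each end of it, beside CG8187 and eIF2Bgamma. Vha14-1 (2R from 15679426 to 15680084), an F gene, had folds of 1.40, 1.68 and 2.40, at percentiles of 1.26, 25.2 and 82.5. Its fkh-Gal4 summit was 460 bp from Vha14-1 and 10 bp from Gmppa, which encodes a subunit of the enzyme that makes GDP-mannose, and its Oregon R summit was 481 and 11 bp from them. Both summits were thus nearer to Gmppa than to Vha14-1. The strongest sage-Gal4 summit lay 171 bp inside the opposite end of Vha14-1, and 2 weaker ones lay 506 and 939 bp outside the gene.

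The peripheral stalk and the regulatory subunits of V1 are encoded by Vha26 (E), Vha13 (G), Vha44 (C) and VhaSFD (H). Vha44 (2R from 16324813 to 16336637) had folds of 1.81, 2.27 and 2.77, at percentiles of 59.6, 82.9 and 93.8. Its summits lay 110, 34 and 28 bp from the higher end, a window shared with Hmgs, the HMG-CoA synthase gene. For Vha13 (3R from 19643018 to 19644386) the folds were 1.59, 2.04 and 2.87, at percentiles of 20.5, 67.9 and 95.3. This gene had 2 fkh-Gal4, 4 sage-Gal4 and 2 Oregon R peaks within the window, of which the wide Oregon R peak of 3215 bp covered the gene. Peaks at Vha26 (3R from 5591763 to 5595356) had folds of 1.65, 2.02 and 2.21, with driver summits 542 and 525 bp from the lower end. VhaSFD (2L from 16722883 to 16727826) was bound by sage-Gal4 (1.85) and Oregon R (1.67) peaks, and its nearest fkh-Gal4 summit was 3031 bp away.

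In V0, the a subunit forms the proton channels with the ring of c and c'' subunits. Vha100-2 (3R from 18390323 to 18399169), a broadly expressed a gene, had folds of 2.38, 2.17 and 1.81, at percentiles of 93.0, 77.0 and 44.7. It had the highest fkh-Gal4 percentile of the bound V-ATPase genes. Vha16-1 (2R from 6625242 to 6633090), the main c subunit gene, had folds of 2.22, 2.05 and 2.11, at percentiles of 87.4, 68.8 and 67.4. VhaPPA1-1 (3R from 14902330 to 14904061), the broadly expressed c'' gene, had folds of 1.73 in the sage-Gal4 list and 2.15 in the Oregon R list. The nearest fkh-Gal4 summit to VhaPPA1-1 was 48347 bp away.

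The d subunit couples the central rotor to the c ring. VhaAC39-1 (X from 3880748 to 3882967), the broadly expressed d gene, had folds of 2.13, 2.44 and 3.27, at percentiles of 83.9, 89.5 and 98.7. Its Oregon R peak ranked 179 of 14039, the best rank of any V-ATPase gene in that list. In the fkh-Gal4 and sage-Gal4 lists its peaks ranked 1040 and 826, and their summits lay 2 bp apart. VhaM9.7-b (3L from 21539862 to 21541215), the broadly expressed e gene, had a sage-Gal4 peak of fold 1.59 and an Oregon R peak of fold 1.74, both at its lower end beside COX8, a cytochrome oxidase gene. VhaAC45 (2R from 9207561 to 9209774), which encodes the accessory protein, had folds of 1.39 with fkh-Gal4 and 2.20 with sage-Gal4, and its peaks stood at percentiles of 0.828, 78.8 and 59.7 in the fkh-Gal4, sage-Gal4 and Oregon R lists. The fkh-Gal4 peak of VhaAC45 was thus among the weakest of its list, with a −log10 q of 1.31.

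The second comparison set broadly expressed genes against tissue-restricted paralogues, as in the plot of shares. Of the 15 broadly expressed genes, 12 were bound with fkh-Gal4, 15 with sage-Gal4 and 15 in Oregon R (80%, 100% and 100%). Of the 11 tissue-restricted genes, 2, 3 and 5 were bound in these lists (18.2%, 27.3% and 45.5%). The shares of all genes bound in these lists were 28.4%, 38.9% and 62.4%. In both driver lists the counts were 12 of 15 (80%) and 2 of 11 (18.2%), with 26.2% of all genes. The 7 unclassed genes had 2, 1 and 4 bound in the 3 lists (28.6%, 14.3% and 57.1%). Their fkh-Gal4 and Oregon R shares were thus near those of all genes. The classes also differ in gene length and neighbours: the median length was 3338 bp for broadly expressed and 1371 bp for tissue-restricted genes, and 2161 bp over all genes. Another gene end lay within 1000 bp of an end for 15 of 15 broadly expressed and 9 of 11 tissue-restricted genes (80.5% of all genes). The part of length and neighbours in the difference was not tested.

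**Figure D2:**
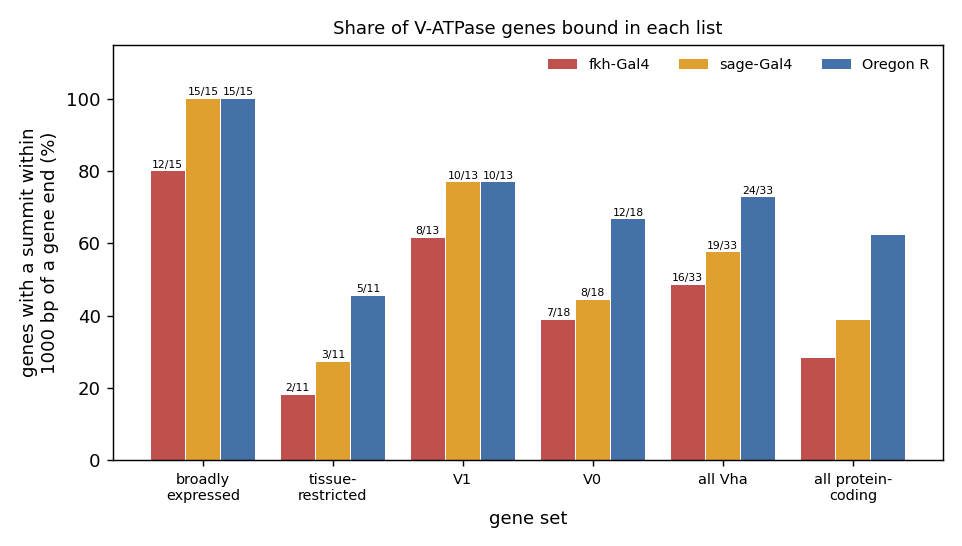
Share of genes with a summit within 1000 bp of a gene end (vertical axis, percent) in 5 sets of V-ATPase genes, with a bar each for the fkh-Gal4, sage-Gal4 and Oregon R lists, and over all protein-coding genes, with counts above the bars of the V-ATPase sets. Broadly expressed genes reach 80%, 100% and 100%, and tissue-restricted genes 18.2%, 27.3% and 45.5%.

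The bound tissue-restricted genes were few enough to describe singly. Vha100-1 (3R from 29131193 to 29137980), an a subunit gene of neurons and synaptic vesicles, was bound in all 3 lists, with folds of 1.61, 1.87 and 2.47. The strongest peak of each list lay at the lower end beside dgt6, a gene of the augmin complex, and Oregon R had a weaker peak (fold 2.17) 657 bp beyond the higher end. VhaAC39-2 (3R from 23158017 to 23159316) was bound in all 3 lists with folds of 2.06, 2.37 and 2.29, but the strongest summit of each list was nearer to unk, a zinc finger gene, at 627, 774 and 675 bp, than to VhaAC39-2, at 782, 929 and 830 bp. At its other end VhaAC39-2 also had a weaker sage-Gal4 summit at 486 bp (fold 1.45) and a weaker Oregon R summit at 292 bp (fold 2.07). Vha36-2 was bound with sage-Gal4 (2.27) by a summit 721 bp from it and 25 bp from Cam, the calmodulin gene. Its nearest fkh-Gal4 summit lay 1264 bp away, outside the window. In the Oregon R list, Vha14-2 (1.98), Vha16-5 (2.06) and VhaPPA1-2 (1.93) were also bound. Of these, the summit for Vha16-5 was nearer to CG12299 and that for VhaPPA1-2 nearer to CG3817, at 18 and 27 bp. The Vha14-2 summit had no other gene end in its window.

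Among unclassed genes, Vha16-4 (2R from 16947658 to 16948224), a c subunit gene, was bound with both drivers, with folds of 1.70 and 1.77, and its nearest Oregon R summit was 3776 bp away. Its peaks were 169 and 230 bp wide, and the window also held ends of CG34190, CG15614 and mute. VhaM9.7-c had a fkh-Gal4 peak of fold 1.43 and an Oregon R peak of fold 2.02. The other bound ones were Vha100-5 (1.98), VhaM9.7-a (1.79), beside CG1309 and CG11586, and VhaAC45RP (2.66), beside Rsod, all in Oregon R. The threshold of 1000 bp passes close to some genes: inside it, the farthest strongest summits were those of VhaAC39-2 with sage-Gal4 at 929 bp and VhaPPA1-2 in Oregon R at 840 bp. Just outside it were Vha100-4 in Oregon R at 1101 bp (fold 2.37) and Vha36-2 with fkh-Gal4 at 1264 bp (fold 1.66).

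Some paralogues lie side by side, which puts a broadly expressed and a restricted gene into one stretch of chromosome. Vha68-2 and Vha68-3 are 178 bp apart on 2L. All 3 lists had their peak at the far end of Vha68-2, and the summit nearest to Vha68-3 was 4337, 4350 and 4537 bp away. Vha100-4 and Vha100-2 are 517 bp apart on 3R, and the driver and Oregon R peaks that bind Vha100-2 lay at its far end as well. The nearest summits to Vha100-4 were 5813 bp (fkh-Gal4), 7716 bp (sage-Gal4) and 1101 bp (Oregon R) away, the last on the side away from Vha100-2. VhaPPA1-2 and VhaPPA1-1 are 2052 bp apart with 1 gene between them. There the sage-Gal4 peak and the strongest Oregon R peak lay at the far end of VhaPPA1-1. Oregon R also had a weaker peak between the paralogues, 667 bp from VhaPPA1-1, and one 840 bp outside VhaPPA1-2. Vha16-3 and Vha16-2, both tissue-restricted, are 985 bp apart on 3L, and no summit of any list lay within 11950 bp of either.

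**Figure D3:**
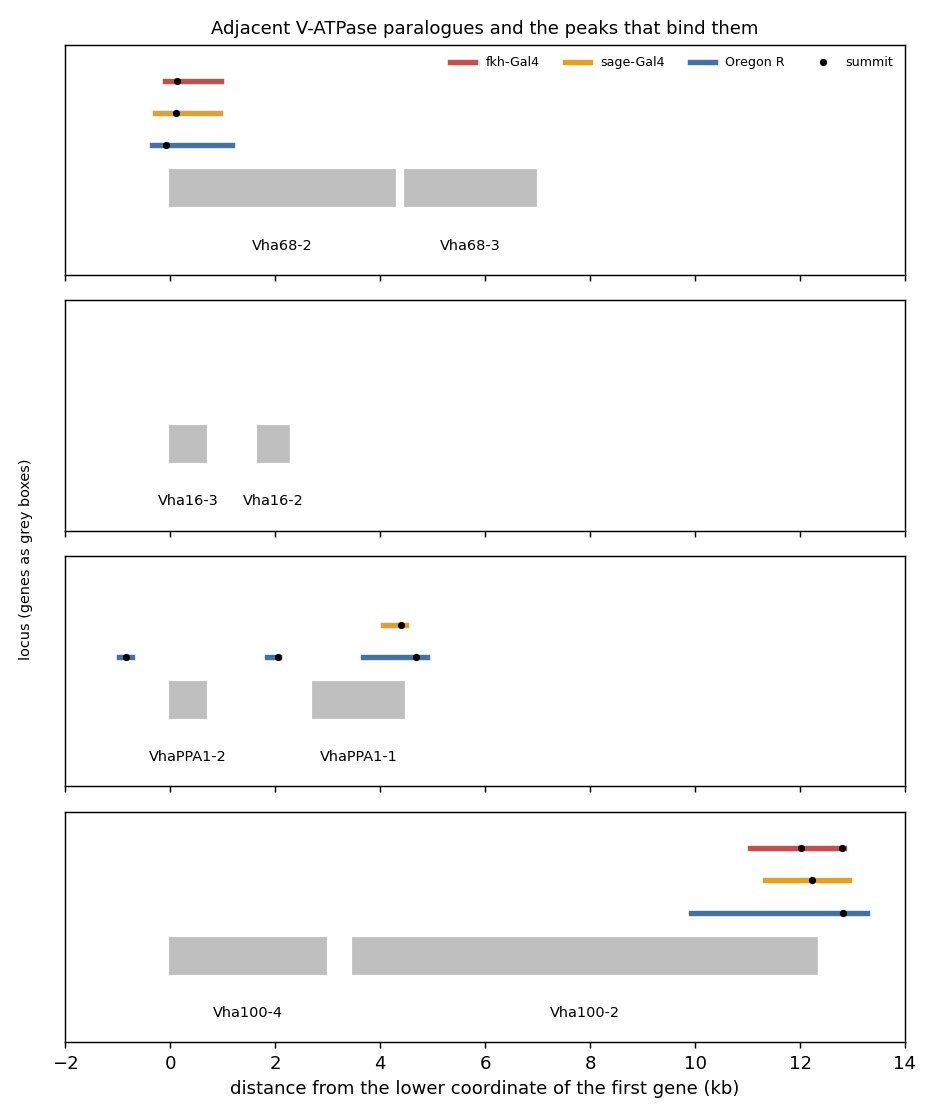
Loci of 4 adjacent pairs of V-ATPase paralogues (grey boxes) with the peaks that bind them (coloured bars; black points are summits) in the fkh-Gal4, sage-Gal4 and Oregon R lists, against distance in kb from the lower coordinate of the first gene. At Vha68-2 and Vha100-2 the peaks stand at the end away from the neighbouring paralogue, and the pair Vha16-3 and Vha16-2 has no peak.

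Summits at V-ATPase genes lay close to gene ends. The strongest summit was within 200 bp of an end for 11 of 16 bound genes with fkh-Gal4 (42.2% of all bound genes), 16 of 19 with sage-Gal4 (46.5%) and 17 of 24 in Oregon R (57.8%). The median distances were 129, 114 and 133 bp, beside 286, 230 and 151 bp over all bound genes. In strength the shares were near those of all bound genes: the strongest peak stood at percentile 75 or above at 6 of 16, 7 of 19 and 11 of 24 bound genes (35.2%, 31.7% and 41.8% of all bound genes). Their median percentiles were 51.4, 67.9 and 71.4, and those over all bound genes 61.4, 60.1 and 70.1. These values describe bound genes and not the whole set of 33.

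The summit was shared with the window of another gene at 13 of 16, 15 of 19 and 17 of 24 bound V-ATPase genes (77.9%, 77.4% and 77.3% of all bound genes). Gene ends shared in both driver lists joined VhaAC45 with Gnptab, a phosphotransferase gene of lysosomal enzyme sorting in mammals, Vha55 with Snx3, a sorting nexin gene, Vha16-1 with Trap1, a mitochondrial chaperone gene, and Vha26 with noi, a splicing factor gene. The same held for Vha13 with Nup58, a nucleoporin gene, and, at weaker peaks, with subdued, for Vha36-1 with eIF2Bgamma, a translation factor gene, and for VhaAC39-1 with CG2930. A peak of such a window cannot be assigned to one of its genes from position alone.

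Where a driver peak and the Oregon R peak overlapped at the same gene end, their summits mostly sat on different sides of that end, a pattern chosen for description after the values were seen. At Vha13 the fkh-Gal4 and sage-Gal4 summits lay 128 and 143 bp inside the gene, and the Oregon R summit 86 bp outside it. Vha55 had its driver summits 68 and 52 bp inside and its Oregon R summit 143 bp outside, nearer to Snx3 than to Vha55. For Vha68-2 the positions were 127 and 114 bp inside and 73 bp outside. VhaAC39-1 showed 130 and 132 bp inside with the drivers and 22 bp outside in Oregon R. The summits of the drivers thus lay close to each other in these genes, and the Oregon R summit stood apart from both, as the plot of summit positions shows. Other genes differed. At Vha44 the sage-Gal4 summit lay 6 bp from the Oregon R summit and 144 bp from the fkh-Gal4 summit. At Vha16-1 the fkh-Gal4 summit lay 42 bp from Oregon R and 337 bp from sage-Gal4. At VhaAC39-2 both driver summits lay nearer to Oregon R (48 and 99 bp) than to each other (147 bp).

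Over all bound V-ATPase genes, the strongest summit lay inside the gene at 11 of 16 with fkh-Gal4, 13 of 19 with sage-Gal4 and 3 of 24 in Oregon R. The shares over all bound protein-coding genes were 40.4%, 40.4% and 23.7%. The 3 with an Oregon R summit inside were VhaSFD, Vha16-1 and Vha100-5. Genes were then compared where the strongest fkh-Gal4 and Oregon R peaks overlap at the same gene end. Of 14 such V-ATPase genes, 10 had the fkh-Gal4 summit inside and the Oregon R summit outside, and 0 had the opposite. Of 3010 such protein-coding genes, 18.3% had the first arrangement and 169 genes had the opposite. For sage-Gal4 against Oregon R it was 10 of 14 V-ATPase genes and 20.6% of 4201 protein-coding genes. The median position was 128 bp inside with fkh-Gal4 and 128 bp outside in Oregon R for the first 14 genes, and 109 bp inside with sage-Gal4 and 99 bp outside in Oregon R for the other 14. Between the driver lists, 1 of 13 genes, Vha44, had the fkh-Gal4 summit inside and the sage-Gal4 summit outside, beside 5.25% of 3048 protein-coding genes. The strongest summits of the 15 genes bound with both drivers lay a median of 50 bp apart. From the Oregon R summit the medians were 200 bp with fkh-Gal4 (15 genes) and 229 bp with sage-Gal4 (17 genes). At Vha100-2, among the 10 genes counted with fkh-Gal4, a weaker fkh-Gal4 summit (fold 1.53) lay 474 bp outside, near the Oregon R summit at 499 bp. The fkh-Gal4 peaks of VhaAC45 and VhaM9.7-c, also among them, stood at percentiles of 0.828 and 2.69. Oregon R peaks were also wider, with a median of 1282.5 bp at bound V-ATPase genes, against 708 bp with fkh-Gal4 and 597 bp with sage-Gal4. The part of width in the summit positions was not tested.

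**Figure D4:**
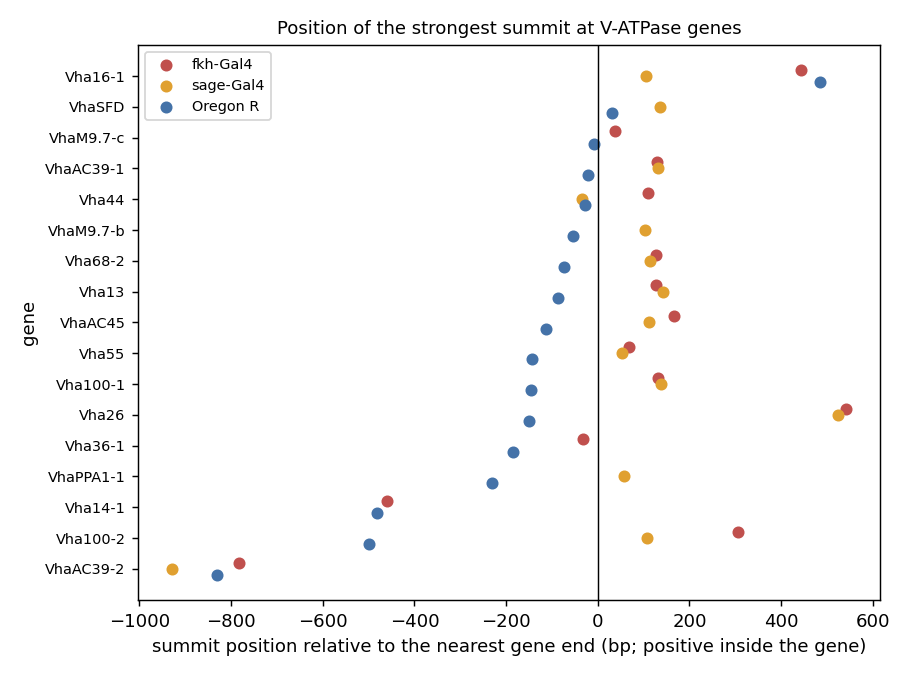
Position of the strongest summit relative to the nearest gene end (horizontal axis, bp, positive inside the gene) at V-ATPase genes where a driver peak and the Oregon R peak overlap at the same end, with fkh-Gal4 in red, sage-Gal4 in orange and Oregon R in blue. Most driver points lie to the right of the gene end at 0 and most Oregon R points to the left, while VhaAC39-2, Vha14-1 and Vha36-1 lie outside the gene in each list shown.

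Genes that assemble, regulate or work beside the pump were counted from lists written for this comparison. Of 14 assembly and regulation genes, 9 were bound with fkh-Gal4, 7 with sage-Gal4 and 14 in Oregon R (64.3%, 50% and 100%, beside 28.4%, 38.9% and 62.4% of all genes). The 7 bound in both driver lists were Rbcn-3A and Rbcn-3B (fkh-Gal4 folds 2.18 and 1.90), of the rabconnectin complex that promotes V1 and V0 assembly, CG5969 (1.69) and CG7071 (1.79), Lamtor3 (2.48) and Lamtor5 (1.68) of the Ragulator complex, and the GTPase gene RagC-D (1.87). Mitf, a transcription factor gene known to regulate V-ATPase genes in the fly, was bound in Oregon R (2.48) and in neither driver list. ATP6AP2, an accessory subunit gene outside the symbol rule, was bound with fkh-Gal4 (1.70) and in Oregon R (1.74). The fkh-Gal4 summits of CG7071, Lamtor5 and ATP6AP2 lay near the edge of the window, at 977, 935 and 877 bp.

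Of 26 lysosome genes, 12, 16 and 24 were bound with fkh-Gal4, sage-Gal4 and in Oregon R. These are 46.2%, 61.5% and 92.3%, beside 28.4%, 38.9% and 62.4% of all genes. The 12 bound with both drivers included CtsB (2.27), CtsF (1.67) and cathD (1.59), which encode cathepsins, Cln3 (2.46) and Cln7 (2.19), relatives of human neuronal ceroid lipofuscinosis genes, and spin (1.68), a lysosomal transporter gene (fkh-Gal4 folds). The others were GILT1, Npc2a, Rab7, Vps16A, Vps39 and dor, of which GILT1 had the highest fkh-Gal4 fold (2.23). The fkh-Gal4 peaks of Vps16A and dor were weak, at percentiles of 8.98 and 10.1. Summits of Npc2a and Vps39 lay 725 and 748 bp from these genes with fkh-Gal4, and 709 and 773 bp with sage-Gal4. The mitochondrial ATP synthase, a related rotary enzyme, had 8, 8 and 12 of 15 genes bound. These are 53.3%, 53.3% and 80%, beside 28.4%, 38.9% and 62.4% of all genes. Its 4 genes whose symbol ends in L were bound in no driver list, and ATPsynbetaL was the sole one bound in Oregon R. These 4 genes are too few to compare with the shares of all genes. The ATP synthase genes bound with both drivers were ATPsyngamma, ATPsynC, ATPsynCF6, ATPsynD, ATPsynE, ATPsynG and ATPsynbeta. The fkh-Gal4 peak of ATPsynbeta was weak, at percentile 11.1. Distances of the driver summits varied among these genes. With fkh-Gal4 and sage-Gal4 they were 874 and 914 bp for ATPsynG, and 649 and 633 bp for ATPsynD. For ATPsyngamma they were 187 and 183 bp, and for ATPsynC 181 and 172 bp. In both driver lists, 15 of 33 V-ATPase genes, 7 of 14 assembly genes, 12 of 26 lysosome genes and 7 of 15 ATP synthase genes were bound. All stand beside 26.2% of protein-coding genes. For the assembly, lysosome and ATP synthase genes, these counts use the 1000 bp rule alone.

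Many of the calls rest on weak peaks. When −log10 q had to reach 10, 3 V-ATPase genes (Vha16-1, Vha100-2 and VhaAC39-2) were bound in both driver lists, beside 5.25% of all genes, and among the 1000 strongest peaks of each list 0 were, beside 3.32%. If a summit could bind no gene but the nearest one, 8 of the 14 genes bound in all 3 lists remained (13.4% of all genes).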

How the data were processed

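Immunoprecipitated DNA from embryos (collected for 8 h, aged for 11 h, fixed in 1.8% formaldehyde, 2 collections, per the labels' protocols) was sequenced in 3 libraries, with 3 inputs. The submitters' processing notes name BWA, the dm6 genome and the peak caller MACS2 (2.1.0.20140616). Their settings and the read depth are not given in the sources used. Per the labels, whether the collections were pooled is not stated. The deposited narrowPeak lists hold, per peak, the authors' integer score (not used), fold enrichment as a ratio, −log10 p and −log10 q (a p-value and a q-value), and, as an other unit, how many bp the summit lies past the start. Without read counts, the depth and counting error behind each value are unknown.

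Genes came from the RefSeq table of the release 6 assembly. Binding was assigned in Python 3.11.15 with pandas 2.3.3 and numpy 2.4.6. Among peaks bound to a gene, the one of highest fold was described. On simulated data, 200 of 200 genes with a planted summit were recovered and 0 genes were bound by 200 distant summits. Every Vha gene is named, with genes that share its driver summits or, for genes bound in Oregon R alone, its strongest summit, and listed genes bound with both drivers. Vha16-4 was added to the subunit classes after the files were seen, and genes named beside other single-list summits (Cam, COX8, mTor, CG8187), and Mitf, ATP6AP2 and ATPsynbetaL, were chosen after their values were seen. The members and lists were chosen with earlier results of these data known. The symbol CtsD on the lysosome list, an older name of cathD, was not matched separately.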

Additional observations from a re-analysis of the deposited data

How the results depend on the processing

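Counts of bound V-ATPase genes stayed within 1.5 times with windows of 2000 bp, with the gene body included and with the peak interval in place of the summit. At 2000 bp, 17, 19 and 25 genes were bound with fkh-Gal4, sage-Gal4 and in Oregon R. The shares of all genes rose there to 35%, 46% and 69.7%, and the V-ATPase share in Oregon R was 75.8%. With overlapping driver peaks required, chosen after seeing the data, 15 genes remained bound with both drivers. A 500 bp window left 1 tissue-restricted gene bound with both drivers, beside 19.1% of all genes. The nearest gene only left 1 tissue-restricted gene with both drivers and 2 in Oregon R, beside 16.2% and 45.1%. That setting also left 8 V-ATPase genes in all 3 lists, beside 13.4%. When −log10 q had to reach 10, the counts were 4 with fkh-Gal4, 6 with sage-Gal4, 3 with both and 2 in all 3 lists. The shares of all genes were 7.03%, 10.2%, 5.25% and 4.94%. With both drivers, the counts were 0 V1, 3 V0, 2 broadly expressed and 1 tissue-restricted gene. In Oregon R, 7 V0 and 3 tissue-restricted genes were bound, beside 42.8% of all genes. With the 1000 strongest peaks of each list, the counts were 3 with fkh-Gal4, 2 with sage-Gal4 and 4 in Oregon R. The shares of all genes were 6.23%, 6.17% and 6.96%, and the sage-Gal4 count (6.06%) was thus near its share. In Oregon R these were 3 V1 and 1 V0 genes, with 4 broadly expressed and 0 tissue-restricted. With both drivers or in all 3 lists the count was 0 in each class, beside 3.32% and 1.18% of all genes. Fewer peaks were tested with the q limit and with the 1000 strongest peaks. Median percentiles moved by less than 10 when −log10 q replaced fold. The count of summits inside with a driver and outside in Oregon R was 10 with fkh-Gal4 and 10 with sage-Gal4 by −log10 q, and 8 of 9 and 8 of 11 where no other gene was nearer (24.9% and 26.9% of all genes), both chosen after seeing the data. The transcription start rule and the motif search were not run, as the annotation used here has no strand or sequence. No paired analysis was possible because each condition has 1 library.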
